A study of Mus musculus with 12 samples.

Results

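Zeb1, Zeb2, Snai1, Snai2, Twist1 and Twist2 encode the transcription factors best known for driving the epithelial-to-mesenchymal transition. These 6 genes, of 21887 protein-coding genes in the gene table, were chosen by name. Around them lay 139 of the 134023 peaks deposited for the series. A peak was counted for a gene when it lay within 50 kb of either end of the mm10 gene model, and a gene end was called marked when a peak lay within 1 kb of it. The bases that peaks of each histone mark covered in that window were then summed for each cell line.

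Chromatin immunoprecipitation with sequencing (ChIP-seq), which maps where a histone mark sits along the genome, had been performed on 2 mouse melanoma cell lines. Line 493 carries a Kmt2d mutation and line 971 is Kmt2d wild type (WT). Kmt2d encodes a methyltransferase of the COMPASS family that writes H3K4me1, mainly at enhancers. Both lines were grown in DMEM/F12 medium with serum and profiled for H3K4me3, H3K27ac, H3K4me1 and H3K27me3. With a single library for each mark in each line, no difference had a replicate check and no test was made. Each genotype was represented by a single line, so genotype and line cannot be told apart. How the mutation arose and from which tumours the lines came is not stated in the labels.

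Zeb1 and Zeb2 are zinc-finger homeodomain repressors, Snai1 and Snai2 (Slug) are zinc-finger repressors of the Snail family, and Twist1 and Twist2 are basic helix-loop-helix factors that bind DNA with an E-protein partner. In epithelial cells the Zeb and Snail proteins repress Cdh1, the gene of E-cadherin, through E-box sites. In the melanocyte lineage, which is not epithelial, Zeb2 and Snai2 belong to the differentiated, Mitf-driven state, and Zeb1 and Twist1 are known from the invasive, dedifferentiated state of melanoma. H3K4me3 marks active or poised promoters, H3K27ac active promoters and enhancers, H3K4me1 enhancers, and H3K27me3 Polycomb repression.

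The lists were of unequal length. The mutant lists held 17987 H3K4me3, 18751 H3K27ac and 3649 H3K4me1 peaks, and the WT lists 23154, 26415 and 17373. The mutant H3K27me3 list, with 1300 regions, was called against the WT H3K27me3 library according to its name, so it holds regions higher in the mutant line and was not compared with the 25394 WT peaks. Gene-end H3K4me3 was found at 4 of 7 melanocyte markers in the mutant line and at 2 in the WT line. Mitf and Pmel were marked in both lines, a state of 55% of all protein-coding genes. Sox10 and Mlana were marked in the mutant line alone, and Tyr, Dct and Tyrp1 in neither. WT H3K27me3 lay at a gene end of Sox10 and Tyr and of no other melanocyte marker, beside 9.94% of all genes. Of 5 fibroblast markers, 2 were marked in the mutant line and 3 in the WT line, and Dcn had no H3K4me3 in its window in either. Covered H3K4me3 was at least 2-fold higher in the mutant line at Sox10 and Tyrp1, of 6 melanocyte markers tested. It was at least 2-fold lower at Col1a2 and Thy1, of 4 fibroblast markers tested. Such differences were found at 2.68% (higher) and 4.46% (lower) of all genes tested. Neither Tyrp1 nor Col1a2 had gene-end H3K4me3 in either line. H3K27ac gave no such contrast. Of 5 melanocyte markers tested for it, 2 were called lower and 2 higher, and of 5 fibroblast markers 2 lower and 1 higher. All genes tested were called lower at 45.6% and higher at 8.49%. Sox10 was lower in H3K27ac, with 0.089 kb in the mutant line and 0.618 kb in the WT line. Of 3 endothelial and 3 immune markers, 1 each was marked in both lines, and of 3 keratinocyte markers none was marked in either. The part of these marker differences in the results on the 6 genes was not tested. The marks say nothing of the Kmt2d sequence and so do not check the genotype.

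The promoter sequences show what the wide H3K4me3 peaks described next lay over. The RefSeq promoter table (GRCm38.p6) held starts for Zeb2, Snai1, Twist1 and Twist2. The 250 bases before the start are given 5′ to 3′ on the gene's own strand, with matches to the hexamer CAGGTG or its reverse complement CACCTG, an E-box bound by the Zeb and Snail families, in capitals. They are Zeb2 at chr2:45117443-45117692 on the minus strand (the outermost of 4 starts), Snai1 at chr2:167537945-167538194, Twist1 at chr12:33957421-33957670 and Twist2 at chr1:91801211-91801460, the last 3 on the plus strand.
Zeb2: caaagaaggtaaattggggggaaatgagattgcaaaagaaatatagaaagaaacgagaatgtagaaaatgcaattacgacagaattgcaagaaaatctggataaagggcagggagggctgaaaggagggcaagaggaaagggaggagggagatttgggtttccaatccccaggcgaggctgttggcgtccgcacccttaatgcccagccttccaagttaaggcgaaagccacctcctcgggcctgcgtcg
Snai1: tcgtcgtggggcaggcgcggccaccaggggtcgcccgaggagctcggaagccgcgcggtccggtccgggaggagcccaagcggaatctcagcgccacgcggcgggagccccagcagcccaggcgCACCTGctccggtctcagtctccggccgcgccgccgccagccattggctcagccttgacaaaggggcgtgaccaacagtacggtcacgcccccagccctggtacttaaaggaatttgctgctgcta
Twist1: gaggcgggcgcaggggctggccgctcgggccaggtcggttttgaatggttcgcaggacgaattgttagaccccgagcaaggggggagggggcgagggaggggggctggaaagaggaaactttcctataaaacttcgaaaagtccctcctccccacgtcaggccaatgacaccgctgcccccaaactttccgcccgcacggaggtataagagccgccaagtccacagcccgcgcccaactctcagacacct
Twist2: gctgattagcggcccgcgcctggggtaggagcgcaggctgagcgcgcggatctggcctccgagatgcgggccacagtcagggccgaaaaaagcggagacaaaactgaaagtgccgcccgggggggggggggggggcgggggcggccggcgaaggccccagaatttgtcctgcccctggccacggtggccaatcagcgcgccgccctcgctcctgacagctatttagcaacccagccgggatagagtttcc
Snai1 held 1 match, whose first base lay 126 bases before the start, and the Twist1, Twist2 and 4 Zeb2 windows held none. Of 21263 promoters of the same length, 16.9% held this hexamer on either strand. The palindrome CACGTG, present in 6.63% of promoters, was in none of these windows. The 4 windows printed also differed in CG dinucleotides, with 27 in Snai1, 23 in Twist2, 18 in Twist1 and 9 in Zeb2, against a median of 10 over all promoters. H3K4me3 peaks covered all 250 bases in both lines for Zeb2, Twist1 and Twist2. For Snai1 they covered 250 bases in the mutant line and 234 in the WT line.

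All 6 genes carried H3K4me3 at a gene end in both lines, a state found at 55% of all protein-coding genes. None was marked in the mutant line alone, a state of 1.68% of genes, or in the WT line alone, a state of 1.37%. The promoter peaks of the Zeb and Twist genes and of Snai2 were among the wider peaks of each list. In such a peak list a weaker mark in every cell and a mark in fewer cells cannot be told apart.

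Zeb2 (gene ID 24136, chr2:44983512-45117442, minus strand), a gene of 134 kb, had by far the most H3K4me3 of the 6. The peak over its start was 17.9 kb wide in the mutant line and 24.6 kb wide in the WT line. It was the 3rd widest of 17987 peaks in the mutant list and the 2nd widest of 23154 in the WT list. The 4 annotated starts and the antisense gene Zeb2os lie under both peaks, so the marks of the sense and antisense genes cannot be separated. A further peak of the mutant list, 5.07 kb wide and scored 1120, lay within the span of the WT domain, so that most of the domain was marked in both lines.

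The remaining difference at Zeb2 lay inside the gene. Downstream of the promoter domain the WT list held a run of 18 consecutive H3K4me3 peaks that no mutant peak overlapped (chr2:45019706-45090841). The run spanned 71.1 kb, from 26.6 to 97.7 kb downstream of the start, and its peaks covered 39.4 kb. Single peaks were 0.475 to 6.40 kb wide, with scores of 64.7 to 2075 and a median score of 141. The strongest, 6.40 kb wide, was the one nearest the promoter domain. Over the whole genome 3889 such runs of WT peaks without a mutant counterpart were found, with a median length of 1 peak, and 6 had 10 or more peaks. Only 2 runs held 18 peaks or more, that of Zeb2 and 1 of 21 peaks. The count depended on the length of the lists. When the WT list was shortened to its most significant peaks, as many as the mutant list had (a comparison chosen after seeing the data), 11 consecutive peaks without a counterpart were left inside Zeb2, covering 34.4 kb. That was then the longest of 1867 runs.

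In the same stretch of Zeb2 the mutant lists held 1 H3K27ac peak of 93 bp and no H3K4me3 or H3K4me1. The WT lists held, beside the H3K4me3, 9 H3K4me1 peaks covering 3.84 kb and 4 H3K27ac peaks covering 0.489 kb. Of the 18 WT H3K4me3 peaks, 6 overlapped a WT H3K4me1 peak and 3 a WT H3K27ac peak. Neither H3K27me3 list had a peak there. The stretch thus held peaks of the 3 marks of active chromatin in the WT line and almost none of them in the mutant line. For H3K4me1 and H3K27ac this was the usual state. Of all WT peaks, 6.63% for H3K4me1 and 8.65% for H3K27ac had a mutant counterpart, beside 72.2% for H3K4me3. The mutant H3K4me1 list was also much the shorter, and in this stretch only H3K4me3 was recounted with lists of equal length. The missing H3K4me1 and H3K27ac peaks therefore do not set Zeb2 apart.

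**Figure D1:**
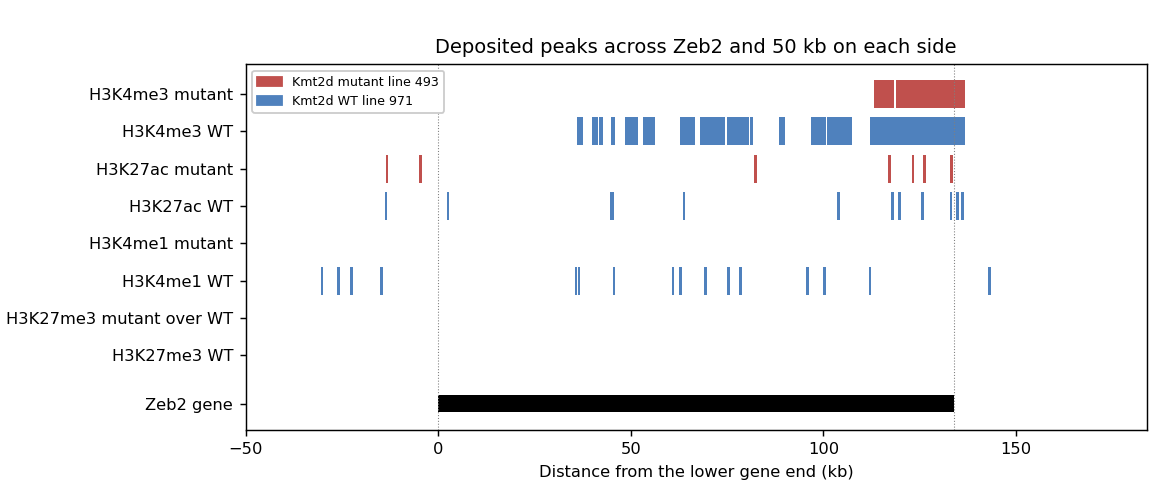
Peaks of the 8 lists across Zeb2, by distance in kb from its lower gene end, with each mark's mutant row above its WT row and the start of this minus-strand gene at the right dotted line. The promoter domain is present in both lines, and the run of 18 H3K4me3 peaks inside the gene appears in the WT row alone; very short peaks are drawn slightly wider than they are.

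Within 50 kb of its ends, Zeb2 had 23.0 kb of H3K4me3 in the mutant line and 42.6 kb in the WT line. Only 2 of 21887 genes had a larger loss of covered bases. The ratio of the mutant to the WT value, 0.539, fell short of the 2-fold difference used as a call. That window leaves out the middle of the gene. Over the whole gene body and 50 kb on each side, Zeb2 had 23.0 kb in the mutant line and 64.0 kb in the WT line, the largest loss of all genes, and was called lower. Within 20 kb of the gene ends the values were 22.3 kb in the mutant line and 22.8 kb in the WT line, so the promoter region itself hardly differed.

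Zeb1 (gene ID 21417, chr18:5591327-5775468), the other Zeb repressor, also spans a long gene body, of 184 kb. The H3K4me3 peak at its lower end was 7.05 kb wide in the mutant line and 7.09 kb in the WT line. It ranked 178th by width in the mutant list and 268th in the WT list, and the end of the lncRNA gene Gm10125 lies under it. Inside the gene, near 12 kb, a weaker peak was 1.76 kb wide in the mutant line and 3.03 kb in the WT line, and a WT peak of 0.627 kb had no mutant counterpart. In all, Zeb1 had 10.1 kb of H3K4me3 in the mutant line and 12.3 kb in the WT line. The long run of intragenic peaks seen over Zeb2 in the WT line had no equivalent over Zeb1.

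Snai1 (gene ID 20613, chr2:167538195-167542814, plus strand), the Snail repressor induced early in the transition, had its H3K4me3 arranged differently in the lines. The peak over the start was 3.90 kb wide with a score of 1207 in the mutant line, and 2.42 kb wide with a score of 562 in the WT line. A second WT peak, of 0.886 kb, followed within the span of the single mutant peak. At the far end of the gene the mutant peak was 0.451 kb wide with a score of 65.5, and the WT peak 2.22 kb wide with a score of 518. At the start 49.8% of the mutant list and 48.5% of the WT list were less significant than these peaks, and at the far end 4.98% of the mutant list and 47.4% of the WT list. The window of Snai1 held 12.5 kb of H3K4me3 in the mutant line and 14.4 kb in the WT line, but much of this belongs to neighbours. One strong peak, 3.63 kb wide in the mutant line and 4.0 kb in the WT line, lay at the shared gene ends of Rnf114 and Spata2. Peaks nearest to Snai1 itself covered 4.35 kb in the mutant line and 5.52 kb in the WT line.

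Snai2 (gene ID 20583, chr16:14705852-14709395), the Snail family member of neural crest and melanocytes, had a single H3K4me3 peak in each line that lay over the gene. It was 4.94 kb wide in the mutant line and 5.27 kb in the WT line. No other H3K4me3 peak lay within 50 kb of the gene.

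Twist1 and Twist2 were the genes with more H3K4me3 in the mutant line, for Twist2 by little. Twist1 (gene ID 22160, chr12:33957671-33959831) had 7.80 kb in the mutant line and 6.19 kb in the WT line, and 478 genes had a larger gain. Its promoter peak was 6.94 kb wide in the mutant line and 5.79 kb in the WT line, the 193rd widest of the mutant list and the 600th of the WT list. A second mutant peak, 0.860 kb wide with a score of 97.1 and no WT counterpart, lay 28.3 kb away at Ferd3l, a neighbouring basic helix-loop-helix gene. Twist2 (gene ID 13345, chr1:91801461-91848034) had 7.06 kb in the mutant line and 6.85 kb in the WT line, and the order turned in a 20 kb window, with 6.07 kb in the mutant line and 6.43 kb in the WT line. Its promoter peak was 6.07 kb wide in the mutant line and 5.48 kb in the WT line. Peaks away from the Twist2 promoter were at different places, with 1 of 0.994 kb upstream in the mutant line, and 1 of 0.950 kb and 1 of 0.425 kb inside the gene in the WT line.

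No member was called 2-fold lower in H3K4me3, a call made for 4.46% of the genes tested, and none 2-fold higher, against 2.68%. A gene was tested when peaks covered at least 0.2 kb in either line. Of the 6 genes, 4 had less and 2 had more covered bases in the mutant line, beside 70.3% and 29.6% of all genes tested. The median log2 ratio of mutant over WT covered bases (with 100 bp added to each) was −0.15 over the members and −0.11 over all genes. Of the members' H3K4me3 peaks, 13 of 15 in the mutant list overlapped a peak of the other line, or 86.7%, beside 91.8% of that whole list. In the WT list it was 15 of 29, or 51.7%, beside 72.2% of the whole list, and 10 of the 14 WT peaks without a counterpart lay at Zeb2.

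**Figure D2:**
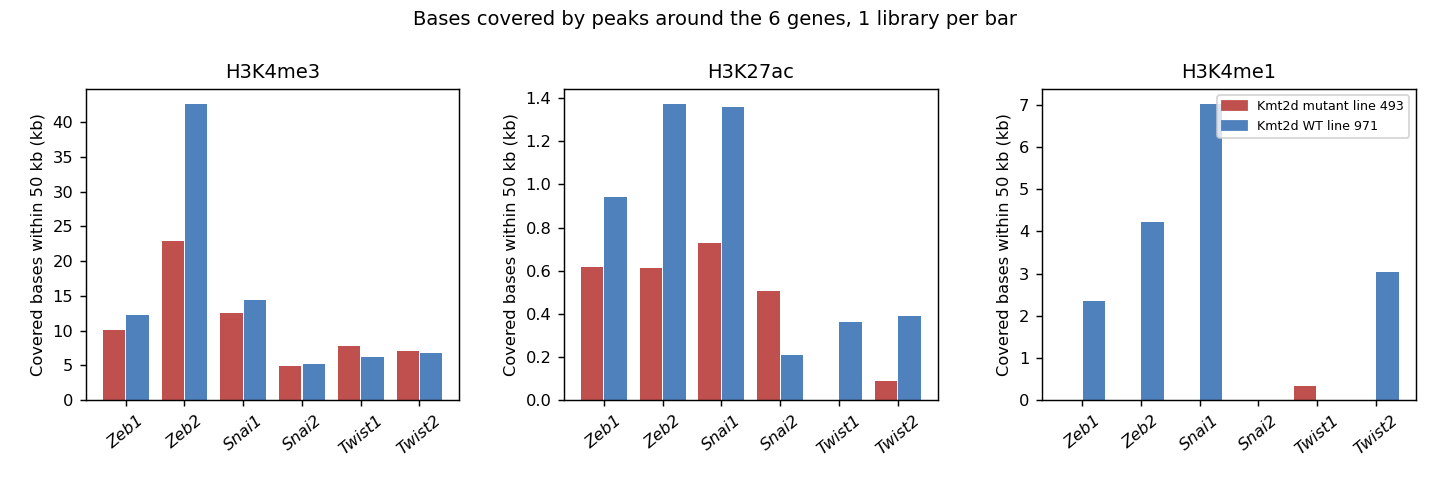
Covered bases in kb within 50 kb of the gene ends for H3K4me3, H3K27ac and H3K4me1, with the mutant bar left of the WT bar for each gene and 1 library per bar. Zeb2 shows the widest gap in H3K4me3, at 23.0 kb in the mutant line and 42.6 kb in the WT line, and a missing bar means that no peak was listed.

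H3K27ac peaks were short, with a median width of 107 bp in the mutant list and 116 bp in the WT list, and most lay at different places in the lines. The narrowest were 89 bp wide in the mutant list and 88 bp in the WT list. A value of 0.089 or 0.088 kb is thus 1 peak of the smallest width, and a call against it rests on that peak. Around the members, 1 of 18 mutant peaks (5.56%) overlapped a WT peak, beside 12.2% of the mutant list, and 1 of 31 WT peaks (3.23%) overlapped a mutant peak, beside 8.65% of the WT list. Within 1 kb the shares were 44.4% of the mutant peaks and 22.6% of the WT peaks, beside 38.8% of the mutant list and 30.1% of the WT list.

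At gene ends, H3K27ac was found in both lines at Zeb2, Snai1 and Snai2, in the WT line alone at Twist1, and in neither at Zeb1 and Twist2. Over all genes 12.6% had it in both lines, 6.84% had it in the mutant line alone, the state of no member, and 16.1% in the WT line alone, the state of Twist1. Zeb1 and Twist2 missed the 1 kb limit narrowly in the WT line, with peaks 1.15 and 1.02 kb from a gene end. At a limit of 2.5 kb both genes were marked in both lines. Zeb2 had 0.612 kb of H3K27ac in the mutant line and 1.37 kb in the WT line, a call of lower. Near its start lay a mutant peak of 105 bp, and WT peaks of 219 and 115 bp. Around Zeb1 there were 0.616 kb in the mutant line and 0.942 kb in the WT line. A pair of overlapping H3K27ac peaks deep inside Zeb1, 75.9 kb from the lower end and outside the 50 kb window, was 178 bp wide with a fold enrichment over input of 4.82 in the mutant line and 231 bp with 7.19 in the WT line.

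Snai1 and Snai2 had gene-end H3K27ac in both lines. For Snai1 it lay at the far end, with mutant peaks of 106 and 287 bp (fold enrichments of 6.57 and 6.05) and a WT peak of 88 bp (4.95). The Snai1 window as a whole had 0.727 kb in the mutant line and 1.36 kb in the WT line. When the peaks nearest to Snai1 alone were kept, the order turned, with 0.393 kb in the mutant line and 0.265 kb in the WT line, several WT peaks of the window lying at or near the ends of Rnf114 and Spata2. Snai2 was the only member called higher, with 0.505 kb in the mutant line and 0.209 kb in the WT line. Its gene-end peaks, 327 bp in the mutant line and 209 bp in the WT line, had fold enrichments of 5.58 and 5.57 and lay on either side of the lower gene end without overlapping. With only the peaks nearest to Snai2, the values were 0.416 kb in the mutant line and 0.209 kb in the WT line, just under the 2-fold line.

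The Twist genes had little H3K27ac in the mutant line. In the WT line their values lay above those of 58.8% (Twist1) and 61.1% (Twist2) of all genes. Twist1 had none in the mutant line and 0.364 kb in the WT line in 3 peaks, the one at the gene being 88 bp wide. Twist2 had 0.089 kb in the mutant line and 0.391 kb in the WT line. Both were called lower. In all, 3 of the 6 genes were called lower in H3K27ac and 1 higher, beside 45.6% and 8.49% of all genes tested. The members' share of lower calls was thus close to the share over all genes. Their median log2 ratio was −0.93 and that of all genes −0.69. When the WT list was shortened to its most significant peaks, as many as the mutant list had, Twist2 was the only member called lower in H3K27ac, and Snai2 was still called higher.

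H3K4me1 around the members was nearly confined to the WT line. The mutant list held 1 peak in the windows of the 6 genes and the WT list 29, and no peak overlapped one of the other line. Over the whole lists 31.7% of mutant and 6.63% of WT H3K4me1 peaks had a counterpart. Snai1 had the most, with none in the mutant line and 7.02 kb in the WT line, and 315 genes had a larger loss. Of its 11 WT peaks, 2, of 1.18 and 0.430 kb, lay within 1 kb of the far gene end, and others stretched downstream of it. Of the 11, 3 lay nearest to Rnf114 or Ube2v1, and without these Snai1 had none in the mutant line and 4.50 kb in the WT line. At gene ends no member was marked in the mutant line alone, a state of 1.79% of genes, and Snai1 alone of the 6 was marked in the WT line alone, a state of 3.73%.

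Zeb2 had no H3K4me1 in the mutant line and 4.23 kb in the WT line, in 11 peaks of 205 to 626 bp on both sides of and inside the gene. Twist2 had none in the mutant line and 3.04 kb in the WT line, of which a single peak inside the gene, 21.9 kb from the start, made up 2.03 kb. Zeb1 had none in the mutant line and 2.35 kb in the WT line. These genes and Snai1 were called lower. Twist1 was called higher, because of 1 mutant peak of 326 bp (fold enrichment 5.32) that lay 1.68 kb beyond the gene, within the promoter H3K4me3 domain, with none in the WT line. Snai2 had no H3K4me1 peak in either line and was not tested. Thus 4 of the 5 genes tested were called lower, beside 71.9% of all genes, and 1 higher, beside 14.0%. The median log2 ratio was −4.97 over the members and −2.14 over all genes, the mutant list being the much shorter of the lists. With the WT list shortened to the same length, Zeb2 and Snai1 were called lower, with none in the mutant line and 0.926 kb and 1.23 kb in the WT line, and Zeb1 and Twist2 had no peak left to compare. Of the 29 WT H3K4me1 peaks around the members, 11 (37.9%) overlapped a WT H3K4me3 peak, beside 22.9% of the whole list.

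**Figure D3:**
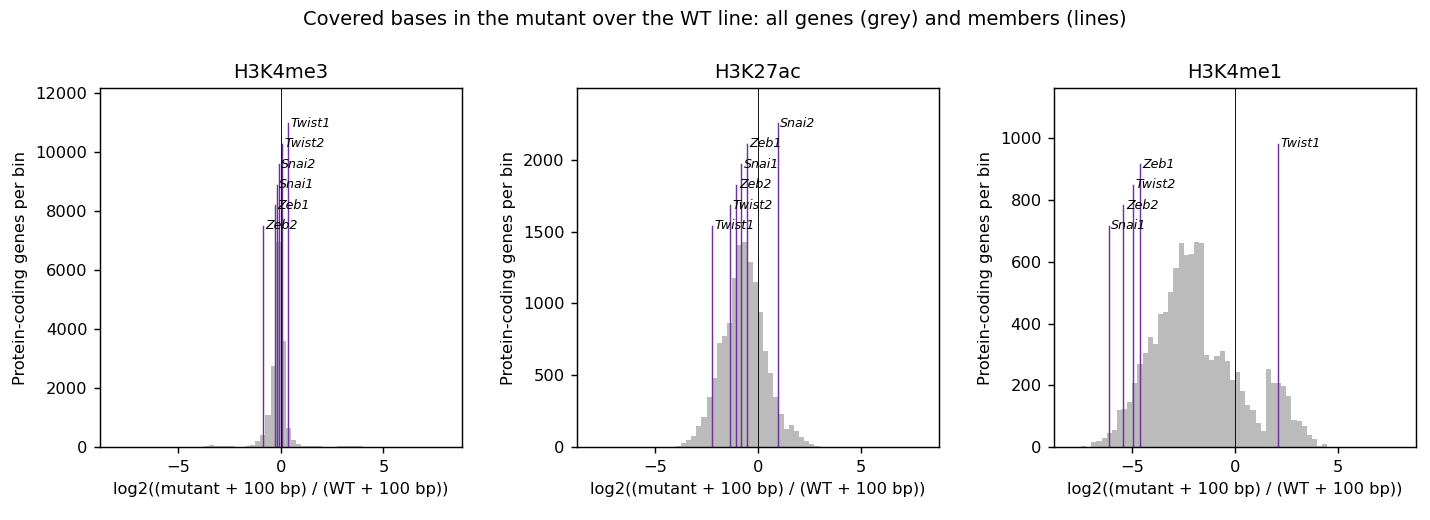
Histograms of log2((mutant + 100 bp) / (WT + 100 bp)) of covered bases over the protein-coding genes tested, per mark, with the tested members as lines. For H3K4me3 the members lie near 0 apart from Zeb2 at −0.89, for H3K27ac the one member right of 0 is Snai2, and for H3K4me1 the one member right of 0 is Twist1.

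H3K27me3 was described for each list alone. No region of higher H3K27me3 in the mutant line lay within 50 kb of any of the 6 genes, beside 5.77% of genes that had such a region. In the WT list, Twist1 and Twist2 had H3K27me3 in their windows and the other 4 genes had none, beside 42.4% of all genes with any. None of the 6 had it at a gene end, a state of 9.94% of genes. The 4 WT peaks around Twist1 covered 2.92 kb, lay 27.9 to 42.4 kb from the gene and had Ferd3l as their nearest gene. The mutant H3K4me3 peak at Ferd3l overlapped 2 of these WT H3K27me3 peaks. Twist2 had 12 WT peaks covering 10.3 kb. Of these, 9 lay 13.9 to 38.3 kb upstream, the widest 3.36 kb, and 3 lay beyond the far end, nearest to Hdac4.

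**Figure D4:**
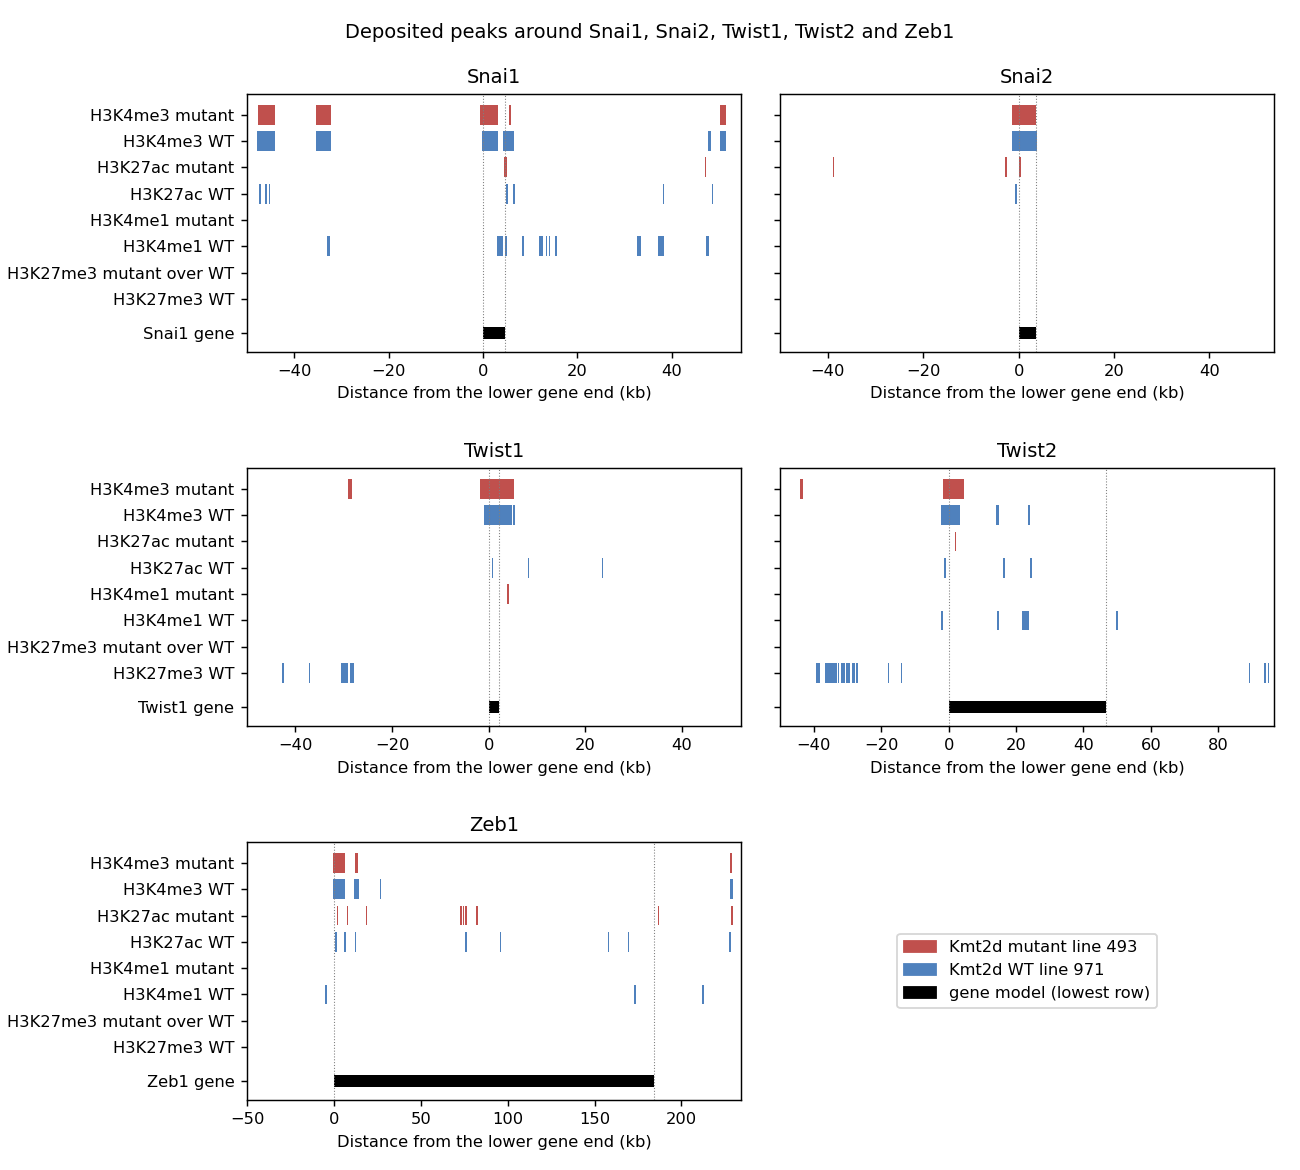
Peaks of the 8 lists within 50 kb of Snai1, Snai2, Twist1, Twist2 and Zeb1, by distance in kb from the lower gene end, with each mark's mutant row above its WT row. Each gene has H3K4me3 over its lower end in both lines, H3K4me1 is in the WT row apart from 1 mutant peak at Twist1, and H3K27me3 peaks of the WT line lie away from the gene ends of Twist1 and Twist2.

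By the pattern over the 8 lists (Euclidean distance of log2 covered bases with 100 bp added), the genes most like Zeb2 were Nr1d1, Thra and Msl1, at distances of 0.66, 0.74 and 0.80, which neighbour each other in the genome. For Zeb1 they were Lrrc75a (0.19), Limd1 (0.28) and Derl3 (0.38). For Snai1 they were Spen (0.50), Cfap97d2 (0.62) and Fgf2 (0.63), and for Snai2 Scyl2 (0.23), Ncoa1 (0.25) and Dclk2 (0.27). Twist1 was nearest to the neighbouring genes Prob1 (0.65) and Spata24 (0.70) and to Epb41l4a (0.73), and Twist2 to Chic2 (0.74), Duox2 (0.85) and Lhpp (0.86). No member was among the nearest 3 of another member.

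The genes around the 6 factors were described in 8 lists of 63 genes in all. For H3K4me3, 41 of the 63 genes were marked at a gene end in both lines, beside 55% of all genes. A further 3 were marked in the mutant line alone (Grhl3, Cldn7 and Dsp) and 2 in the WT line alone (Scrt2 and Crb3). The 63 include 6 short miRNA genes, none of them marked, whereas the 55% is of protein-coding genes. Of 60 genes tested, 1 was called lower and 1 higher. For H3K27ac, 18 of 49 were called lower and 3 higher, and for H3K4me1, 35 of 41 lower and 2 higher. These shares can be read beside the shares of all genes given above for the same calls. With lists of equal length, 13 genes were called lower in H3K4me1 and 18 higher. The shares of all genes at that setting are not given here, so no trait of the network genes can be read from these counts. Genes that lie next to each other, such as Krt8 and Krt18, Mir200a, Mir200b and Mir429, and Mir200c and Mir141, share peaks.

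The closest relatives, the Snail-type genes Snai3, Scrt1 and Scrt2, differed from the 6 members in their gene-end marks. All 3 carried WT H3K27me3 at a gene end, and H3K4me3 was present at 1 of 3 in the mutant line and at 2 of 3 in the WT line. Scrt2 had 2.17 kb of H3K4me3 in the mutant line and 3.69 kb in the WT line, and Scrt1 17.2 kb in the mutant line and 15.5 kb in the WT line. For H3K27ac, Scrt1 had 0.191 kb in the mutant line and 0.745 kb in the WT line, and Snai3 0.089 kb in the mutant line and 0.437 kb in the WT line. All 3 relatives were called lower in H3K27ac, a call made for 45.6% of all genes tested.

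Among other transition factors, none of 6 tested was called in either direction for H3K4me3 and none of 3 tested for H3K27ac. All 3 tested for H3K4me1 (Prrx1, Foxc2 and Tcf4) were called lower, beside 71.9% of all genes tested. Sox9, a neural crest factor, had 8.65 kb of H3K4me3 in the mutant line and 4.47 kb in the WT line, just under 2-fold. Prrx1, a homeobox inducer of the transition, had 7.74 kb in the mutant line and 11.2 kb in the WT line, and its H3K27ac was 1.67 kb in the mutant line and 1.55 kb in the WT line. Gsc had no H3K27ac in the mutant line and 0.13 kb in the WT line.

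Twist factors pair with E-proteins, and Id proteins prevent that pairing. All 6 genes of this list had gene-end H3K4me3 in both lines, beside 55% of all genes. Id3 had 10.8 kb of H3K4me3 in the mutant line and 16.2 kb in the WT line, and Id1 7.92 kb in the mutant line and 12.9 kb in the WT line. For H3K27ac, Id2 had none in the mutant line and 0.538 kb in the WT line, and Id1 0.089 kb in the mutant line and 0.414 kb in the WT line. Both were called lower in H3K27ac. All 8 co-repressor genes were also marked by H3K4me3 in both lines, to be read beside the same 55%. Ctbp2, a co-repressor that Zeb proteins bind, had 7.0 kb of H3K4me3 in the mutant line and 10.5 kb in the WT line. It had no H3K27ac in the mutant line against 0.575 kb in the WT line. Hdac2 had no H3K27ac in the mutant line and 0.725 kb in the WT line. Kdm1a, a demethylase that Snail recruits, had 3.56 kb of H3K4me3 in the mutant line and 2.70 kb in the WT line.

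The opposing factors, which hold cells in an epithelial state, had WT H3K27me3 at a gene end at 7 of 8 genes, beside none of the 6 transition factors described here and 9.94% of all genes. Gene-end H3K4me3 was found at 6 of the 8 in the mutant line and at 5 in the WT line. Grhl3 was marked in the mutant line alone, though its window had 3.8 kb in the mutant line and 4.21 kb in the WT line. Elf3 had 2.60 kb of H3K4me3 in the mutant line and 4.0 kb in the WT line, and Esrp1, a splicing factor, 4.52 kb in the mutant line and 3.35 kb in the WT line. For H3K27ac, Ovol2 had 0.198 kb in the mutant line and 0.682 kb in the WT line, and Ovol1 0.693 kb in the mutant line and 0.997 kb in the WT line.

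The miR-200 family and miR-205 repress Zeb1 and Zeb2 after transcription, and the Zeb proteins repress the miR-200 genes in turn. Their mature sequences from RefSeq (GRCm38.p6), with the seed (bases 2 to 8) in capitals, fall into 3 seed groups.
miR-200b-3p: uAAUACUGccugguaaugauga
miR-200c-3p: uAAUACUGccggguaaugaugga
miR-429-3p: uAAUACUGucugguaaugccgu
miR-200a-3p: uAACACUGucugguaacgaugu
miR-141-3p: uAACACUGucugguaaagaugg
miR-205-5p: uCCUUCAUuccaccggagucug
The first 3 share the seed AAUACUG and the next 2 the seed AACACUG. Gene-end H3K4me3 was found at none of the 6 miRNA genes in either line. The gene ends used here are those of the short miRNA genes. The starts of their longer primary transcripts were not examined, so this count says nothing of the miRNA promoters. Mir200c, which lies in a gene-dense region, had 13.9 kb of H3K4me3 in its window in the mutant line and 15.2 kb in the WT line, and its neighbour Mir141 13.8 kb in the mutant line and 14.8 kb in the WT line. WT H3K27me3 lay in the windows of 4 of the 6, with 8.13 kb around Mir200a, Mir200b and Mir429. Mir205 was called higher in H3K27ac, with 0.482 kb in the mutant line and 0.111 kb in the WT line, and had no H3K4me3 peak in its window in either line. Mir200c had 0.373 kb of H3K27ac in the mutant line and 0.514 kb in the WT line.

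WT H3K27me3 lay at a gene end of 9 of 13 epithelial target genes and of 1 of 13 mesenchymal genes, beside 9.94% of all genes. Cdh1, the classical target, had H3K4me3 at a gene end in both lines, with 3.99 kb in the mutant line and 2.93 kb in the WT line, and WT H3K27me3 at a gene end. Dsp, a desmosome gene, was called higher in H3K4me3, with 4.98 kb in the mutant line and 2.49 kb in the WT line. That difference only just reached the 2-fold line. Pkp1, of the same junctions, had 10.4 kb in the mutant line and 5.78 kb in the WT line, but its H3K27ac was 0.20 kb in the mutant line and 1.25 kb in the WT line. Cldn7 had 1.20 kb of H3K27ac in the mutant line and 0.768 kb in the WT line. A region of higher H3K27me3 in the mutant line, 0.682 kb in all, lay in the windows of Krt8 and Krt18.

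Of the 13 mesenchymal genes, 10 carried gene-end H3K4me3 in both lines, beside 55% of all genes. Sparc, a matrix protein gene, had 10.6 kb of H3K4me3 in the mutant line and 15.5 kb in the WT line, and its H3K27ac was 0.443 kb in the mutant line and 1.23 kb in the WT line. S100a4 had 8.58 kb of H3K4me3 in the mutant line and 13.4 kb in the WT line. Tnc, a matrix protein gene, was the 1 gene called lower in H3K4me3 among the 60 tested, with 1.60 kb in the mutant line and 4.35 kb in the WT line. Of 12 mesenchymal genes tested for H3K27ac, 1 was called higher and 3 lower, beside 8.49% and 45.6% of all genes tested. Cdh2, the gene of N-cadherin, was the higher one, with 0.617 kb in the mutant line and 0.088 kb in the WT line. That WT value is 1 peak of the smallest width in its list. Beside Sparc, the matrix metalloproteinase genes Mmp2 and Mmp9 were lower. Mmp2 had 0.179 kb of H3K27ac in the mutant line and 0.661 kb in the WT line, and Mmp9 0.144 kb in the mutant line and 0.476 kb in the WT line.

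**Figure D5:**
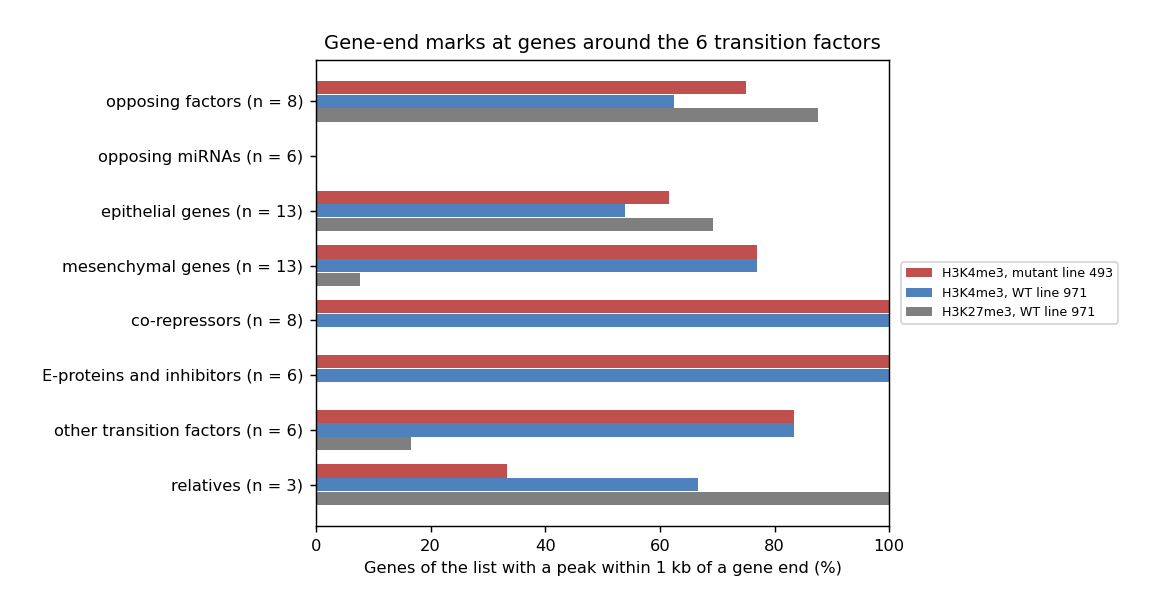
Share of each gene list, in percent, with a peak within 1 kb of a gene end, for H3K4me3 in the mutant line, H3K4me3 in the WT line and H3K27me3 in the WT line, with the number of genes beside each list. WT H3K27me3 marked 7 of 8 opposing factors and 9 of 13 epithelial genes, against 1 of 13 mesenchymal genes. For the miRNAs the ends are those of the short miRNA genes, and their promoters were not examined.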

How the data were processed

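The values start from 8 peak lists deposited by the authors, 1 per ChIP library, with no pooling. The 4 input libraries had no list used here. Per the submitters' processing notes, the build was mm10 and the tools included MACS2, FastQC and MultiQC. The aligner, read filters, tool versions and depth were not given in the sources used here, so no counting interval could be set. In the H3K4me3 lists the score deposited by the authors is the log10 of its p-value multiplied by −10, and the value 3100 recurs in 3223 mutant and 4304 WT peaks, so it does not rank the strongest peaks. In the MACS2 lists the authors deposited a fold enrichment over the control (a ratio) and −log10 p values. Both are the authors' values and rank peaks within their own list. Where the values of both lines stand side by side, each is its own list's and they were not compared. The control of the mutant H3K27me3 list is known from its name alone.

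Peaks on the 19 autosomes, X and Y were kept. Gene ends came from the RefSeq gene table of GRCm38.p6, the assembly of mm10, which has no strand; strands and starts came from the RefSeq promoter table, matched by symbol for Zeb2, Snai1, Twist1 and Twist2. Covered bases in the 50 kb windows were summed for all 21887 protein-coding genes, without a test. A gene with at least 0.2 kb in either line was called at a 2-fold difference. A counterpart was an overlap of 1 bp. The covered-base and overlap code was tested on simulated peaks, with Python 3.11.15, numpy 2.4.6 and pandas 2.3.3.

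Named genes were the 6 members, and from each list those whose gene-end H3K4me3 differed and the 2 with the largest difference in H3K27ac and in H3K4me3, the neighbours with a window peak at their own end, and the 3 genes most alike to each member with no end within 200 kb. Cdh1, Krt8, Krt18 and the cell type markers were named besides. Tnc, Mmp2, Mmp9, Foxc2 and Tcf4 fall outside this rule, and their values were known when they were picked. The members and lists were chosen with earlier results of these data known.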

Additional observations from a re-analysis of the deposited data

How the results depend on the processing

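No paired analysis was possible because there was 1 library per line and mark. Gene-end H3K4me3 was at all 6 genes in both lines with every setting but 2, the more significant 50% of each list, which dropped Snai1 in both lines, and the start alone, known for 4 genes. The direction of the mutant-to-WT difference turned for Snai1 in H3K27ac (20 kb window, nearest gene, more significant 50%) and for Twist2 in H3K4me3 (20 and 100 kb windows), neither of them called. Zeb2 alone became 2-fold lower in H3K4me3 (1 gene, against 0) in a window of 100 kb and over the whole gene body with 50 kb. In a 20 kb window 90.9% of WT H3K4me3 peaks around the members had a counterpart (51.7% at 50 kb), lower H3K27ac calls numbered 1 (against 3) and higher calls 0 (against 1), and 5.26% of WT H3K27ac peaks had a counterpart (3.23%). In a 100 kb window counterparts were found for 14.7% of mutant and 10.9% of WT H3K27ac peaks, and for 50% of mutant and 6.82% of WT H3K4me1 peaks (0 at 50 kb). Within 1 kb, 44.4% of mutant and 22.6% of WT H3K27ac peaks had a counterpart; at an overlap of 50% of the peak, 0 of the mutant peaks did.

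With lists of equal length, 11 WT H3K4me3 peaks without a counterpart followed each other inside Zeb2 (against 18), a setting chosen after seeing the data for this count. There 1 member was lower in H3K27ac (against 3) and 2 in H3K4me1 (against 4). Among the 63 network genes, 2 were then higher in H3K4me3 (against 1), 11 lower (18) and 9 higher (3) in H3K27ac, and 13 lower (35) and 18 higher (2) in H3K4me1. In H3K4me1 the network thus had more lower than higher calls with the full lists, and fewer with lists of equal length. Shares of all genes with lists of equal length are not given here, so these counts of members and network genes have no background beside them. In the more significant 50% of each list, network calls in H3K4me3 were 7 lower and 0 higher (1 each), higher calls were 7 in H3K27ac and 5 in H3K4me1, no member was higher in H3K27ac (1), and 2 members had WT gene-end H3K27ac (4). Counting only peaks whose nearest gene is the member, 0 were higher in H3K27ac (1).

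At 2.5 kb from a gene end, 5 members had mutant H3K27ac (3), 6 had WT H3K27ac (4), 1 had mutant H3K4me1 (0) and 2 had WT H3K4me1 (1). At the transcription start alone, known for 4 members, 1 had mutant and 2 had WT H3K27ac, and 0 had WT H3K4me1. Depth is unknown and limits every absence of a peak: a weak mark below the authors' threshold is not listed.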
